A study of Mus musculus with 3 samples.

Results

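The 10 genes described here encode transcription factors and cofactors of the erythroid and megakaryocyte lineages, *Gata1*, *Zfpm1*, *Klf1*, *Gfi1b*, *Tal1*, *Lmo2*, *Gata2*, *Nfe2*, *Fli1* and *Runx1*. They were chosen by name, and each symbol matched 1 NCBI Gene ID among the 16742 genes listed in any library. RNA-seq was available for 3 libraries, with 1 library per condition. For control, wild-type C57BL/6 mice, which carried no vector, gave lin- bone marrow cells. For TR1 and TR9, RNA came from sorted GFP+ bone marrow cells of mice with TBLR1-RARα (TR) leukemia, also on the C57BL/6 background. Each library pooled 3 mice, and the age on the labels is 6 to 8 weeks for all groups. TR was delivered with GFP on the retroviral transcript of pMSCV-TR-IRES-GFP, and the names TR1 and TR9 go back to a single primary leukemia mouse each, whose spleen cells had been passaged to the third generation. Primary recipients were lethally irradiated and later ones were not. Control cells were thus obtained by depletion of lineage-positive cells and TR cells by a GFP sort, so isolation and genotype cannot be told apart.

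GATA2 acts in stem and progenitor cells and mast cells, and GATA1 takes its place at many sites as erythroid and megakaryocyte cells mature. GATA1 works with its cofactor FOG1 (the product of *Zfpm1*), and both GATA factors join a DNA-bound complex in which TAL1 and an E protein are held by the adaptors LMO2 and LDB1. KLF1 drives globin and red cell membrane genes, GFI1B is a repressor needed in both lineages, NF-E2 is needed for platelet release, and FLI1 and RUNX1 act in stem cells, megakaryocytes and other blood lineages.

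Expected counts summed to between 5129662 and 5571409 per library, and 3 counts were taken as the floor. Values given as a series of 3 are in the order control, TR1, TR9. *Rara*, which is part of the fusion, had 58.9, 1168 and 359 expected counts. *Tbl1xr1*, the gene of the other part, had 854, 1186 and 981, and was not called against control in either TR library. All 30 expected counts of the 10 genes were whole numbers, as they are when RSEM divides no read between genes. Levels are given as FPKM, which is scaled for transcript length. Log2 ratios are ratios of expected counts, each divided by its library total, with 95% exact (Clopper-Pearson) intervals that cover counting error only. A gene was called lower or higher when its counts passed a Poisson test at a false discovery rate of 0.001 or less and its FPKM differed 2-fold or more. Such a call compares the reads of 2 libraries and not the conditions, and no difference has a replicate check.

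In both TR libraries *Gata1*, *Zfpm1*, *Klf1* and *Gfi1b* were reduced to between 0 and 9 counts, from between 870 and 1523 counts in control. *Gata2* fell to a low but countable level, *Tal1* and *Lmo2* fell less, and *Nfe2*, *Fli1* and *Runx1* were not called in either line. In the plot of levels, the 10 genes lie between 23.4 and 147 FPKM in control and spread from 0 to 179 FPKM in the TR libraries.

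**Figure D1:**
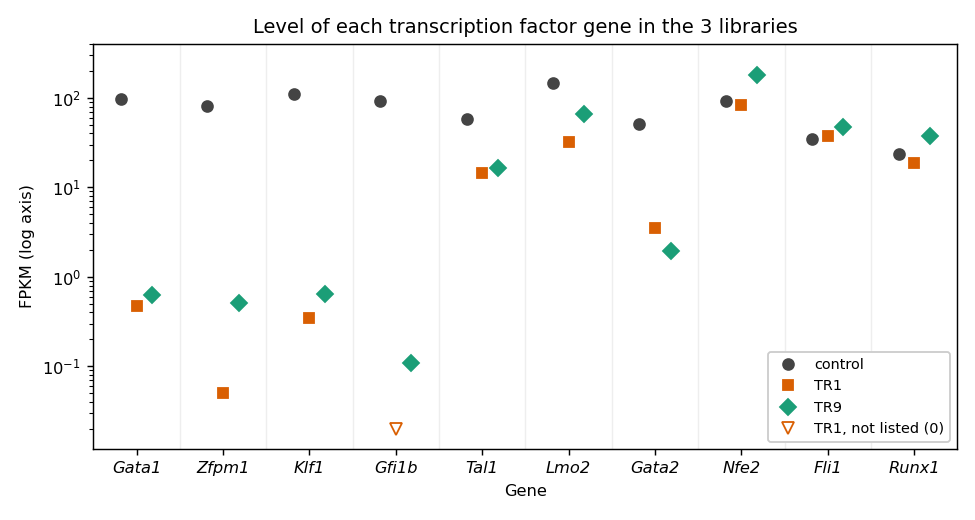
FPKM (log axis) of the 10 genes in the control, TR1 and TR9 libraries, 1 point per library, with an open triangle for a gene not listed in a library. *Gata1*, *Zfpm1*, *Klf1* and *Gfi1b* are under 1 FPKM in both TR libraries, whereas *Nfe2*, *Fli1* and *Runx1* stay above 18 FPKM in all 3.

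*Gata1*, the master regulator of both lineages, had 999, 5 and 6 expected counts. Its level was 96.0, 0.47 and 0.62 FPKM, and in control it ranked 768 of 15302 listed genes. In TR1 the log2 ratio to control was -7.66 (-9.29 to -6.44), or 203-fold lower. In TR9 it was -7.28 (-8.73 to -6.15), or 156-fold lower. *Zfpm1*, which encodes the GATA1 cofactor FOG1, had 1523, 1 and 9 counts, the most of the 10 genes in the control library. Its level went from 81.3 FPKM to 0.05 and 0.51. With a single count in TR1 its log2 ratio there, -10.59, had an interval from -15.90 to -8.11, and it was -7.31 (-8.44 to -6.38) in TR9. The intervals of the cofactor and of the factor it binds overlap in each line.

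*Klf1*, the erythroid Krüppel-like factor, had 918, 3 and 5 counts, or 109.8, 0.35 and 0.64 FPKM. Its log2 ratio was -8.28 (-10.56 to -6.73) in TR1 and -7.42 (-9.05 to -6.19) in TR9. *Gfi1b*, a zinc-finger repressor, had 870, 0 and 1 counts. In TR1 the fold would be 294 at the floor of 3 counts, and the 95% exact interval, which allows for more counts than the floor, put *Gfi1b* at least 239-fold lower. The log2 ratio of *Gfi1b* in TR9 was -9.67 (-14.97 to -7.19). The intervals of these 4 genes overlap one another within each line, so the counts do not order them. In bulk RNA, fewer cells of a type and less RNA per cell cannot be told apart.

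Because these 4 genes were reduced together, the 250 bases before their start sites are shown, from RefSeq on GRCm38.p6 and read 5′ to 3′ on the gene's strand. Capitals mark GATA motifs (AGATAA or AGATAG or TGATAA or TGATAG, on either strand) and the CACCC box CACACCC, which KLF factors can bind.
Gata1, chrX:7967911-7968160, minus strand: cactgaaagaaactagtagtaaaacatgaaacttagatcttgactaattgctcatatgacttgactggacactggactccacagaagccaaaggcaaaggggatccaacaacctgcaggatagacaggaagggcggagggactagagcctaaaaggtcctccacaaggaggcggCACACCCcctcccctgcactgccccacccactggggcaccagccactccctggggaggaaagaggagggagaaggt
Zfpm1, chr8:122281891-122282140, plus strand: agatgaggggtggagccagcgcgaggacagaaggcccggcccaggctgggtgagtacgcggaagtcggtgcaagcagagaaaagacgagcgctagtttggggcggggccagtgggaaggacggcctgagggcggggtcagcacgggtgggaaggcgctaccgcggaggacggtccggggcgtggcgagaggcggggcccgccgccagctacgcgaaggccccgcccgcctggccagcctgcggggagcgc
Klf1, chr8:84901732-84901981, plus strand: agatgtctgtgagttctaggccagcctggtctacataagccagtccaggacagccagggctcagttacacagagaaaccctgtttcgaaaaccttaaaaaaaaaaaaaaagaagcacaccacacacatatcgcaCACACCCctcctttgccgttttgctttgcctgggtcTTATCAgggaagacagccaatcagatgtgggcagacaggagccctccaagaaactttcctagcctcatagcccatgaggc
Gfi1b, chr2:28621983-28622232, minus strand: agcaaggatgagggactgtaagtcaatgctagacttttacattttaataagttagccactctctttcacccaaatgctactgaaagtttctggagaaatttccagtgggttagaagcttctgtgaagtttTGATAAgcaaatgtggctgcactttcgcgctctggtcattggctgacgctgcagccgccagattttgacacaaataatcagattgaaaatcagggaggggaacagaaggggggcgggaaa
*Klf1* has a GATA match that begins 80 bases before the start and a CACCC box at 116 bases, *Gfi1b* has a GATA match at 120 bases, and *Gata1* has a CACCC box at 76 bases. *Zfpm1* has neither set of letters in this window. RefSeq promoters (250 bases before to 50 after the start) were matched for 7 of the 10 genes, which have 10 promoters. GATA motifs were in 3 of these 10, which includes 1 of the 2 *Tal1* promoters, against 29.8% of all 32851 promoters. The CACCC box was in 2 of 10 against 7.95% of all. An E-box (CAGCTG or CAGATG), the kind of site that TAL1 complexes bind, was in 3 of 10 against 30.6%, and an ETS motif (CCGGAA or AGGAAG) was in 3 of 10 against 45.2%, on *Gata1* and on both *Runx1* promoters. The RUNX motif TGTGGT was in 2 of 10 against 16.8%, and the NF-E2 core TGACTCA was in 0 of 10 against 5.20%. No matches of different motifs overlapped, and a match describes letters, not binding.

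*Gata2* had 915, 64 and 33 counts, and its level was 50.9, 3.50 and 1.96 FPKM. The log2 ratio was -3.86 (-4.25 to -3.49) in TR1 and -4.70 (-5.24 to -4.20) in TR9, so *Gata2* was 14.5-fold and 25.9-fold lower. Its interval lies above those of the 4 genes near 0 in each line. *Tal1*, the basic helix-loop-helix factor of the complex, had 1344, 337 and 358 counts, or 58.4, 14.4 and 16.6 FPKM. It was 4.05-fold lower in TR1 (interval 3.59 to 4.58) and 3.51-fold lower in TR9 (3.12 to 3.95).

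*Lmo2*, the adaptor of the complex and the most abundant of the 10 in control at 147 FPKM, had 1235, 278 and 538 counts. It was 4.51-fold lower in TR1 (3.96 to 5.15) and 2.15-fold lower in TR9 (1.94 to 2.38). *Lmo2* at 32.2 and 66.2 FPKM and *Tal1* were thus still well expressed in the TR libraries, where, in TR1 and TR9, 83.4% and 92.8% of listed genes were below *Lmo2* and 66.0% and 67.5% were below *Tal1*. The 2-fold call of *Lmo2* in TR9 was narrow, and it was lost where edgeR's exact test was run with a biological variation between replicates of 0.2 taken as given.

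*Nfe2*, the p45 subunit of NF-E2, had 893, 839 and 1646 counts, and its level was 91.1, 84.1 and 179 FPKM. The log2 ratio was -0.11 (-0.25 to 0.03) in TR1, where its sign turned with TMM scaling, and 0.98 (0.86 to 1.10) in TR9. It was the most abundant of the 10 genes in both TR libraries, with rank 797 of 14642 listed genes in TR1 and 321 of 14817 in TR9. In control, *Nfe2* and *Gata1* were close in level, with a ratio of 0.949 (0.866 to 1.04), whereas *Nfe2* was 179 times *Gata1* in TR1 (76.4 to 552) and 289 times in TR9 (133 to 790).

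*Fli1*, an ETS factor, had 596, 644 and 752 counts, or 35.0, 37.2 and 47.2 FPKM. Its log2 ratio was 0.09 (-0.07 to 0.25) in TR1 and 0.43 (0.28 to 0.59) in TR9. *Runx1* had 789, 713 and 1358 counts, or 23.4, 18.6 and 37.7 FPKM. Its log2 ratio of counts was -0.17 (-0.32 to -0.02) in TR1, where TMM scaling gave 0.08, and 0.88 (0.75 to 1.01) in TR9, and its log2 ratio of FPKM was -0.34 and 0.68. *Nfe2*, *Fli1* and *Runx1* are the 3 genes of the 10 without a call against control.

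**Figure D2:**
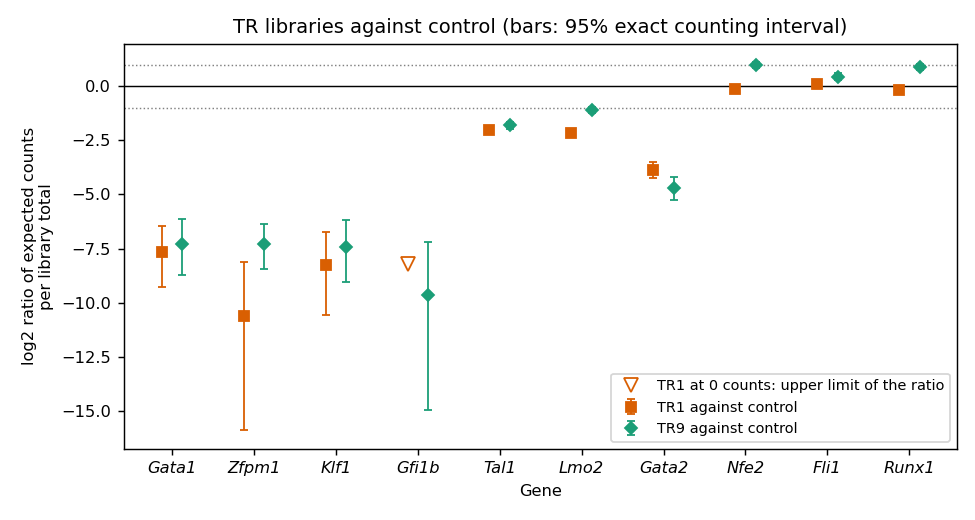
Log2 ratio of expected counts to control (each count divided by its library total) for the 10 genes in TR1 and TR9. The 95% exact counting intervals are shown, with dotted lines at 2-fold. An open triangle marks *Gfi1b* in TR1, where its 0 counts were set to the floor of counts. The ratios fall near -7 or below for 4 genes, within intervals from -5.24 to -0.95 for *Gata2*, *Tal1* and *Lmo2*, and near 0 to 1 for *Nfe2*, *Fli1* and *Runx1*.

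In TR1 7 of the 10 genes were called lower and 0 higher, where 13.0% of the 16282 genes tested were called lower and 8.09% higher. In TR9 7 were called lower and 0 higher, against 10.8% and 9.37% of 16303 genes. Both comparisons use the same control library. The median log2 ratio of FPKM of the 10 genes was -3.03 in TR1 and -3.26 in TR9, and over all genes it was -0.29 and -0.12. TMM scaling, which levels the bulk of the genes, took out shifts of -0.25 in TR1 and -0.11 in TR9, and the background was then 9.77% lower and 10.4% higher in TR1 and 9.22% lower and 10.5% higher in TR9. With TMM the 7 genes were still called lower in each line, and *Nfe2* was called higher in TR9 with a log2 ratio of 1.08.

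When TR9 was compared directly with TR1, *Lmo2*, *Nfe2* and *Runx1* were called higher in the TR9 library and no gene of the 10 was called lower, where 4.34% of 15706 genes were called higher and 2.31% lower. The log2 ratio was 1.07 (0.86 to 1.29) for *Lmo2*, 1.09 (0.97 to 1.21) for *Nfe2* and 1.05 (0.92 to 1.18) for *Runx1*. All 3 are close to the 2-fold threshold. TMM scaling, which took out a shift of 0.13, gave FPKM ratios of 0.91, 0.96 and 0.89 and left 0 of the 10 genes called, against 3.51% higher and 2.83% lower over all genes. The call depends on the scaling, while each interval, which does not include the scaling, stayed above 0.

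In the same comparison *Tal1* was at 0.21 (-0.01 to 0.43) and *Fli1* at 0.34 (0.19 to 0.50), neither called. *Gata2* was at -0.84 (-1.49 to -0.21) and was not called. With 5 and 6 counts for *Gata1* and 3 and 5 for *Klf1*, the intervals of their ratios ran from -1.59 to 2.43 and from -1.51 to 3.54, so no difference was detectable at this depth. *Zfpm1*, with 1 count in TR1 and 9 in TR9, had a log2 ratio of 3.29 (0.44 to 8.74) and was not called, but it was called higher in TR9 at a false discovery rate of 0.05. *Gfi1b*, with 0 and 1 counts, was at or under the floor in both.

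**Figure D3:**
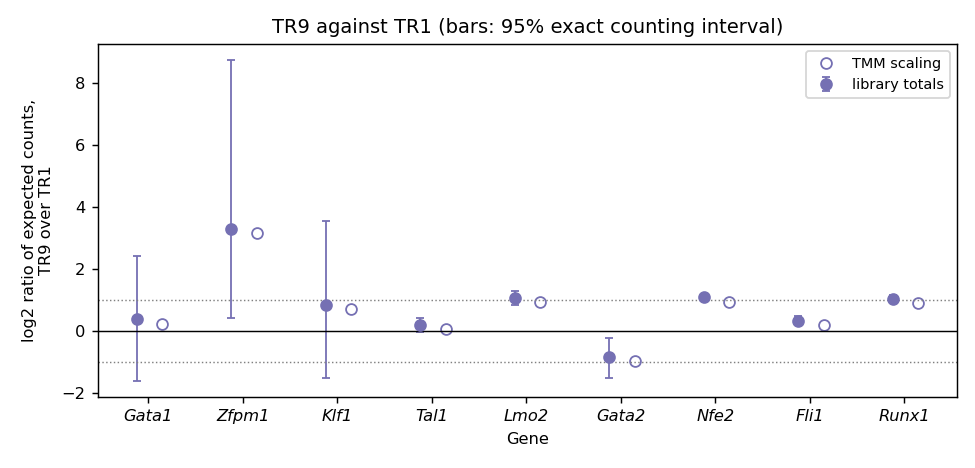
Log2 ratio of expected counts of TR9 over TR1 for 9 of the 10 genes, with 95% exact counting intervals (filled) and the ratio after TMM scaling (open), and dotted lines at 2-fold. *Gfi1b* is left out, since it had 0 and 1 counts. *Lmo2*, *Nfe2* and *Runx1* lie just above the upper dotted line and drop just below it with TMM scaling.

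Several of the genes have a close relative, and the order of level changed between the libraries in 3 of 5 pairs, all but *Fli1* with *Erg* and *Runx1* with *Cbfb*. The FPKM of *Gata1* was 1.89 times that of *Gata2* in control (interval 1.72 to 2.06), 0.134 times in TR1 (0.0422 to 0.330) and 0.316 times in TR9 (0.108 to 0.765). *Gata3*, the lymphoid GATA factor, had 11, 0 and 1 counts. *Gfi1*, the relative of *Gfi1b* that acts in granulocytes, had 193, 2002 and 2553 counts, with log2 ratios of 3.35 (3.14 to 3.57) and 3.82 (3.61 to 4.04). *Gfi1b* was 7.11 times *Gfi1* in control, whereas *Gfi1* stood at 133 and 185 FPKM in TR1 and TR9 beside 0 and 0.11 for *Gfi1b*.

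*Lyl1*, the relative of *Tal1*, had 464, 871 and 822 counts, and its log2 ratios of 0.89 (0.72 to 1.05) and 0.92 (0.76 to 1.09) were not called. Both are close to the 2-fold threshold, and TMM scaling, which took out shifts of -0.25 in TR1 and -0.11 in TR9, raises them above it. *Tal1* was 1.25 times *Lyl1* in control (1.13 to 1.39), 0.167 times in TR1 (0.147 to 0.190) and 0.188 times in TR9 (0.166 to 0.213). *Erg*, the relative of *Fli1*, had 155, 419 and 499 counts and was called higher in both lines, with log2 ratios of 1.41 (1.14 to 1.69) and 1.78 (1.52 to 2.05). *Fli1* was 2.74 times *Erg* in control and 1.10 (0.969 to 1.24) and 1.08 (0.959 to 1.21) times in the TR libraries. *Cbfb*, the partner subunit of RUNX1, had 721, 805 and 733 counts and log2 ratios of 0.14 and 0.12, and *Runx1* was 0.522 times *Cbfb* in control, 0.376 times in TR1 and 0.769 times in TR9. *Spi1*, which encodes PU.1, the myeloid factor that GATA1 antagonizes, had 434, 733 and 1690 counts, with a log2 ratio of 0.73 (0.56 to 0.91) in TR1, not called, and of 2.06 (1.91 to 2.21) in TR9. The TR9 to TR1 ratio of *Spi1* was 1.32 (1.20 to 1.45) and was called.

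**Figure D4:**
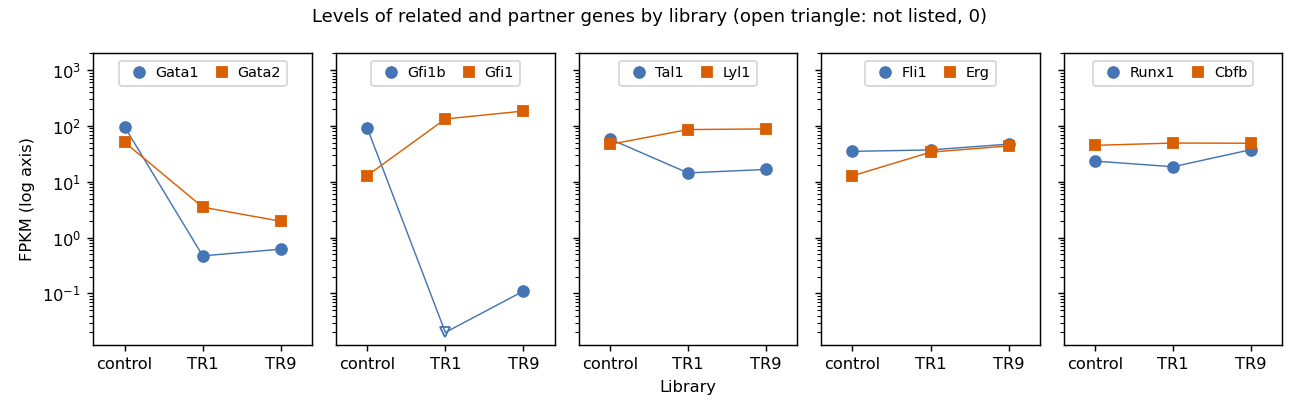
FPKM (log axis) of 5 pairs of related or partner genes in the control, TR1 and TR9 libraries, with 1 point per library, an open triangle for a gene not listed, and lines that join the points of a gene. *Gfi1b* lies above *Gfi1* and *Tal1* above *Lyl1* in control, and both orders are turned in TR1 and TR9.

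Among 27 cofactors and partners of the 10 genes, 6 were called lower in TR1 and 4 in TR9, and none was called higher. With TMM scaling 1 was called higher in each line, a gene that is also on the list of relatives. Over all genes 13.0% were called lower in TR1 and 10.8% in TR9. Under edgeR's exact test 2 cofactors were lower in TR1 and 0 in TR9, and with a log2 ratio of at least 2 there were 0 in each. *Ldb1*, which binds LMO2, had 1663, 563 and 672 counts and log2 ratios of -1.58 (-1.72 to -1.45) and -1.21 (-1.34 to -1.08). *Tcf3*, which encodes the E proteins that pair with TAL1, had 1193, 369 and 498 counts (-1.71 and -1.16). *Ssbp3*, a partner of LDB1, had 796, 243 and 268 counts (-1.73 and -1.47). *Cbfa2t3*, the corepressor of the TAL1 complex, named after its values were seen, had 721, 255 and 299 counts (-1.52 and -1.17). The list's median log2 ratio was -0.66 in TR1, which TMM scaling moved to -0.41, and -0.31 in TR9.

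Of all 22 listed relatives of the 10 genes, *Gfi1*, *Lyl1*, *Erg*, *Spi1* and *Gata3* included, 3 were called lower and 5 higher in TR1, against 13.0% and 8.09% of all genes. Of 21 tested in TR9 3 were called lower and 8 higher, against 10.8% and 9.37%. The share called lower was thus near that of all genes. Besides *Gfi1*, the rule for names took *Klf2*, with 16, 46 and 101 counts (log2 ratios 1.50 and 2.76), and *Lmo1*, a relative of *Lmo2*, with 21, 0 and 0 counts. The list's median was 0.13 in TR1 and 0.19 in TR9. Of 21 other regulators of these lineages, 13 were lower in TR1 and 9 in TR9, with medians of -1.14 and -0.87 and none higher. *Sox6*, which silences embryonic globin, had 127, 0 and 0 counts. *Nfia*, which favors erythroid over granulocyte fate, had 438, 56 and 29 counts, and *Meis1*, a homeobox factor of stem cells and megakaryocytes whose counts were not whole, had 283, 1.48 and 3.05.

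Lists of genes that these factors are known to act on were also counted, where 13.0% of all genes tested were called lower in TR1 and 10.8% in TR9. Of 30 listed erythroid target genes, 28 were called lower in each TR library, and *Slc25a37* and *Gypc*, the 2 named here after their values were seen, were not called. *Kel*, a blood group protease, went from 608 counts to 0 in TR1 and TR9, and *Car1*, a carbonic anhydrase, had 8107, 2 and 6. Of 24 megakaryocyte target genes, 23 were lower in TR1 and 22 in TR9, and *Treml1*, a platelet receptor, and *Pf4*, a platelet chemokine, went from 249 and 1212 counts to 0 in TR1 and TR9. *Ppbp*, another platelet chemokine, had 2250, 0 and 2 counts. Of 10 listed mast cell and basophil genes, which GATA2 acts on, 9 were lower in TR1 and 8 in TR9. *Prss34*, a basophil protease, had 3346, 3 and 10 counts, with log2 ratios of -10.14 and -8.29. *Fcer1a*, a subunit of the IgE receptor, had 55, 0 and 1 counts, and *Il1rl1*, the interleukin-33 receptor, had 399, 13.2 and 16.5. Median log2 ratios were -9.27 and -7.50 for the erythroid list, -6.91 and -6.47 for the megakaryocyte list and -3.86 and -4.20 for the mast cell and basophil list, in TR1 and TR9. With genes at 0 set to the floor of 3 counts, these medians were -6.73 and -6.09, -6.44 and -6.03, and -2.69 and -3.23, beside -0.14 and 0 over all genes. In these medians, a gene at 0 in 1 library and at 3 counts or fewer in the other was given a log2 ratio of 0.

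**Figure D5:**
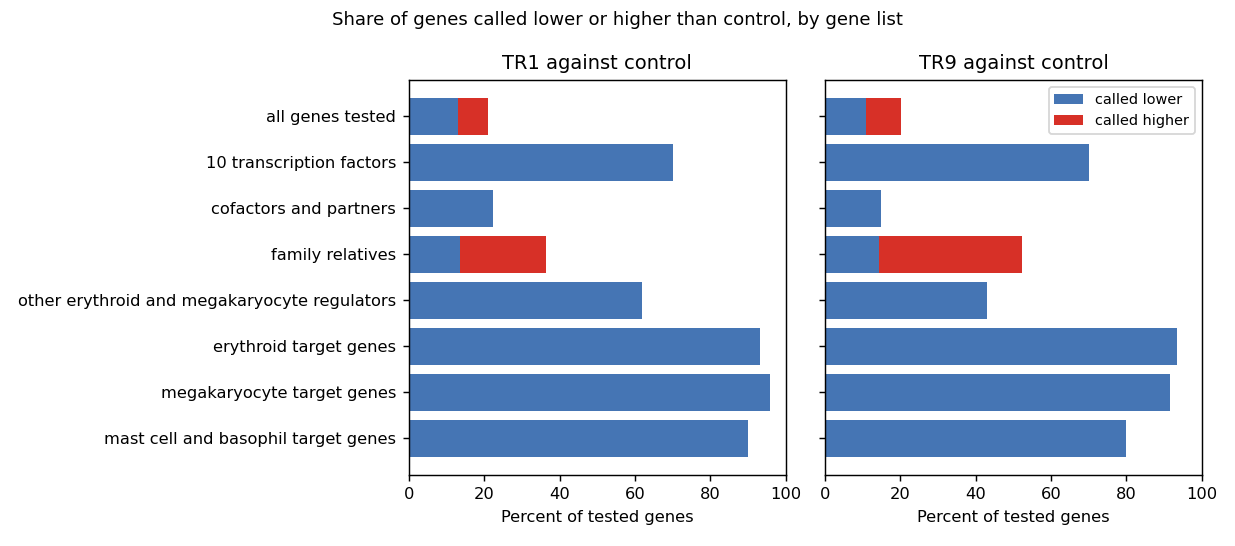
Percent of tested genes called lower (blue) or higher (red) than control in TR1 (left) and TR9 (right), for all genes tested, the 10 transcription factors and 6 gene lists. The erythroid and megakaryocyte targets are nearly all blue in both panels, and the family relatives are the only one of the 6 lists with red.

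Markers of other cell types moved between the libraries together with the 10 genes, and their part in the results was not tested. The summed level of 11 promyelocyte and granulocyte markers was 4340, 43338 and 32463 FPKM, with none at 0. The median of these 11 was 36.25, 1160 and 1773 FPKM, so TR9 was above TR1 by the median and below it by the sum. The summed level of 10 stem and progenitor markers, 3 of them also in the lists above, was 211, 101 and 163 FPKM. Their median fell further, at 8.92, 0.225 and 1.075 FPKM, and 0, 6 and 4 of the 10 had 3 counts or fewer. *Hoxa9* and *Slamf1* were at 0 in both TR libraries. All 12 erythroid, all 12 megakaryocyte and all 8 mast cell and basophil markers are also in the target lists. Their sums were 2347, 40.7 and 41.8 FPKM, 1143, 4.49 and 3.34 FPKM, and 960, 83.9 and 88.5 FPKM, in control, TR1 and TR9. The erythroid sums in the TR libraries are not spread over the list. Its median was 69.2, 0.04 and 0.185 FPKM, and 1, 9 and 6 of its 12 genes had 3 counts or fewer. *Hba-a2* and *Alas2* of the erythroid markers and *Pf4*, *Gp6* and *Treml1* of the megakaryocyte markers and *Gzmb* and *Cma1* of the mast cell and basophil markers were at 0 in both TR libraries. The median of the 8 mast cell and basophil markers was 38.9, 2.1 and 1.97 FPKM. Of these 8, 1, 4 and 3 had 3 counts or fewer, so part of this list was still counted in the TR libraries.

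Endothelial cells also express *Tal1*, *Lmo2*, *Fli1* and *Gata2*. Of 9 endothelial markers, *Kdr*, *Tek*, *Emcn*, *Esam* and *Robo4* were at 0 in both TR libraries and *Cdh5* had 24, 0 and 1 counts. The sum of these markers was 71.0, 89.0 and 311 FPKM, mostly from *Pecam1*, at 41.4, 47.5 and 256 FPKM, and *Flt1*, at 1.21, 35.2 and 47.3. Of 10 B and T lymphoid markers, 7 had 3 counts or fewer in each library, and *Cd79a* and *Cd79b* were among those at 0 in both TR libraries. *Pax5* was at 0 in control as well as in both TR libraries. The sum of the 10 markers was 14.4, 18.2 and 202 FPKM, of which *Igll1* gave 195 in TR9.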

How the data were processed

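RNA-seq of 3 libraries (control, TR1 and TR9) was used, with groups taken from the sample labels. Mapping by the authors used BWA and Bowtie on filtered reads, gene quantification used RSEM, and the submitters' processing notes name the build mm9. Versions are not given in the sources used here. The deposited files hold a gene's expected count, without normalization, and the FPKM, scaled by transcript length and library total. Depth was 5488778, 5571409 and 5129662 counts (control, TR1, TR9). Genes are listed by NCBI Gene ID, and 16698 of 16742 IDs matched the RefSeq table of GRCm38.p6, used for names. A gene not listed was taken as 0.

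After rounding the expected counts, pairs of libraries were tested under a Poisson model, conditional on a gene's summed counts (exact, scipy 1.17.1), and adjusted by Benjamini-Hochberg over all genes listed in either library. FPKM under 0.01 were set to 0.01. The thresholds are those of the study's methods. The steps were tested on simulated data. Alternatives were setting low FPKM to 0.001, adding 1 FPKM, a minimum of 10 counts or 1 FPKM, TMM (edgeR 4.0.16) and median-of-ratios (DESeq2 1.42.0) scaling, edgeR's exact test with replicate variation fixed at 0.2, a 0.05 threshold on the adjusted p-value and a log2 ratio of at least 2.

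The 10 genes, the lists and the motifs were chosen with earlier results of these data known. Named beside the 10 were *Gfi1*, *Lyl1*, *Erg*, *Ldb1*, *Cbfb*, *Spi1*, *Gata3* and from each list 3 genes, those whose log2 FPKM ratios against control had the largest absolute mean, given at least 20 counts in a library, and 1 gene so chosen is not reported here. Marker genes, *Rara*, *Tbl1xr1* and genes said to be so were named after their values were seen. Protein sequences were not analysed here. R 4.3.3, Python 3.11.15, pandas 2.3.3 and matplotlib 3.10.9 were used.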

Additional observations from a re-analysis of the deposited data

Results flagged for a closer look

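The effects of the TR lines against control differed for 3 of the 10 genes when TR9 was compared directly with TR1. The log2 ratio of expected counts was 1.07 for *Lmo2*, 1.09 for *Nfe2* and 1.05 for *Runx1*. As deposited, *Nfe2* and *Runx1* were also on opposite sides of control in the 2 lines, with log2 ratios of FPKM of -0.12 and 0.98 for *Nfe2* and -0.34 and 0.68 for *Runx1*, whereas *Lmo2* was below control in both. With TMM scaling the TR1 value of *Nfe2* turned to 0.13, and its interval in counts, -0.25 to 0.03, spans 0, while the TR1 ratio of *Runx1* in counts turned from -0.17 to 0.08 and in FPKM kept its sign. The Poisson test behind these values compares 2 libraries of 1 pool each, and the calls were lost with TMM scaling.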

How the results depend on the processing

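No paired analysis was possible because each condition has 1 library, and no library could be left out for the same reason. Counts of the 10 genes called lower stayed within 1.5 times under all alternatives. In TR9 against control the 7 became 6 under edgeR's exact test, and 5 with a log2 ratio of at least 2, where *Tal1* and *Lmo2* lost their calls. With TMM or median-of-ratios scaling, 1 of the 10 (*Nfe2*) was called higher in TR9 against control and 0 in TR9 against TR1, and the FPKM ratio of *Nfe2* in TR1 turned from -0.12 to 0.13 and 0.12. With a pseudocount of 1 FPKM the median of the 10 genes in TR9 against TR1 was 0.31 in place of 0.95 (0.64 with *Gfi1b* at the floor of 3 counts), and the erythroid and megakaryocyte medians were -4.78 and -4.48 in TR1 and -4.69 and -4.33 in TR9. Under edgeR's exact test, with replicate variation set to 0.2, 992 genes were lower and 657 higher in TR1, 830 and 717 in TR9, and 94 and 188 in TR9 against TR1. Of the 6 lists together, 2 genes were then higher in TR1, 5 in TR9 and 0 in TR9 against TR1, where 0 were lower and 0 of the 10 genes were called. With a log2 ratio of at least 2, 1133 genes were lower and 685 higher in TR1, 928 and 738 in TR9, and 135 and 283 in TR9 against TR1, and of the lists 2 were higher in TR1, 4 in TR9 and 0 in TR9 against TR1, where 0 were lower and 0 of the 10 genes were called. With a false discovery rate of 0.05, 5 genes of the lists were lower in TR9 against TR1, against 3 before, and *Zfpm1* was called higher there with an FPKM ratio of 3.35. The edgeR test left 2 cofactors, 1 relative and 3 other regulators lower in TR1 and 0 cofactors and 5 other regulators lower in TR9, with 2 and 5 relatives higher in TR1 and TR9. A log2 ratio of at least 2 left 0, 1 and 4 of these lists lower in each line, with 2 and 4 relatives higher. Among genes with at least 1 FPKM the median of the relatives in TR9 was 0.92 in place of 0.19. Of 262 ratios of single genes under the alternatives, 241 kept their direction and their side of the call. Why values moved was not tested beyond what each setting does by construction. Depth limits the ratios among *Gata1*, *Zfpm1*, *Klf1* and *Gfi1b*.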

Other observations

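The transcript length that RSEM gives for a gene is a mean over its transcripts, weighted by their abundance, and for *Runx1* it was 6073, 6799 and 6943 bases (control, TR1, TR9). The log2 ratio of *Runx1* in TR9 was therefore 0.88 in counts and 0.68 in FPKM. For *Lmo2* these lengths were 1541, 1555 and 1592 bases. *Tal2*, a relative of *Tal1* named after its values were seen, had 0, 11 and 0 counts and was not called. *Myb* and *Hhex*, also named after their values were seen and known in early progenitors, had 4108, 2805 and 4250 counts and 434, 352 and 739 counts, and *Hhex* was called higher in TR9 than in TR1 with a log2 ratio of 1.19.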
